A study of Mus musculus with 8 samples.

Results

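GDNF, the growth factor that keeps spermatogonial stem cells renewing themselves, acts through a small set of receptors and adaptors, and the H3K79me2 peaks over the 10 genes of that set are described here. The 10 genes were chosen by name: the GDNF-family co-receptor genes Gfra1, Gfra2, Gfra3 and Gfra4, the receptor tyrosine kinase gene Ret, the neural cell adhesion molecule gene Ncam1, and the adaptor genes Shc1, Gab1, Grb2 and Frs2. They are 10 of 21887 protein-coding genes of the RefSeq GRCm38.p6 table, and all 10 were found in it. A gene's span is the stretch of chromosome the table gives for it, and a gene is called marked where a peak covers at least 1 bp of that span.

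H3K79me2, histone H3 dimethylated at lysine 79, was located by ChIP-seq, the sequencing of chromatin pulled down with an antibody, in EPZ5676-treated and in control cultures of mouse spermatogonial stem cells. The germ cells were taken from testes of mice 7 days old, of the strain B6.129S7-Gt(ROSA)26Sor/J, in which a LacZ reporter is on in all tissues. Both groups had been kept for 2 months on SNL 76/7 feeder cells without serum, with GDNF at 10 ng/mL and FGF2 at 0.5 ng/mL, so the ligand of this receptor set was present throughout. The treated cultures then received 2 µM EPZ5676, which inhibits the H3K79 methyltransferase DOT1L, for 7 days. Control cultures received vehicle, given as DMSO in the protocols and abbreviated as ethanol in the sample descriptions. Although each condition has 2 H3K79me2 samples and 2 inputs, a single peak list stands for it, so values are given without replicate error and conditions are compared without a test. How deeply the samples were sequenced is unknown. A lost peak can mean fewer cells with the mark or less of the mark per cell, and peak lists cannot tell these apart. No step that removed the feeder cells is given, so the lists may include their chromatin.

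GDNF binds GFRA1 at the cell surface, and the pair brings together and activates RET, whose phosphorylated tyrosines recruit adaptors. NCAM1 can serve GDNF as another signalling receptor beside GFRA1. SHC1 and FRS2 dock on the receptor and recruit GRB2, which couples to Ras and the MAP kinases, while GAB1 brings in PI3 kinase. In the testis, Sertoli cells secrete GDNF, and GFRA1 and RET are carried by undifferentiated spermatogonia. DOT1L places H3K79me2 over the transcribed bodies of active genes, mostly downstream of their starts.

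After EPZ5676, 4 of the 10 genes had a peak, and in the control 9 of 10 had one. Among all protein-coding genes, 12.3% had an EPZ5676 peak and 52.7% had a control peak. The 4 with an EPZ5676 peak, Ncam1, Gab1, Grb2 and Frs2, all had control peaks too, and Gfra1, Gfra3, Gfra4, Ret and Shc1 had control peaks only. Both peaks were thus present in 4 of the 9 control-marked genes, where the share over all control-marked genes was 19.3%. That share depends on gene length: it was 1.97% for control-marked genes under 10 kb, 14.4% for 10 to 50 kb, 38.6% for 50 to 200 kb and 52.1% over 200 kb, and the 4 genes have spans of 64553 to 297265 bp. Summed over the 10 spans, peaks covered 7751 bp in EPZ5676 cells against 341173 bp in control cells, a control length 44.0 times as long. Over all protein-coding genes this ratio was 44.1. The lists have different floors, with lowest −log10 p of 4.03 in the EPZ5676 list and 2.36 in the control list, so the ratio is one of deposited lengths and not a size of loss. With control peaks held to the EPZ5676 floor it was 38.0 for the 10 genes (7751 bp in EPZ5676 cells, 294257 bp in control cells) and 36.4 for all protein-coding genes. The sum hides a split, since Ncam1 held 4656 of the 7751 bp, and without it the ratio as deposited was 105.

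**Figure D1:**
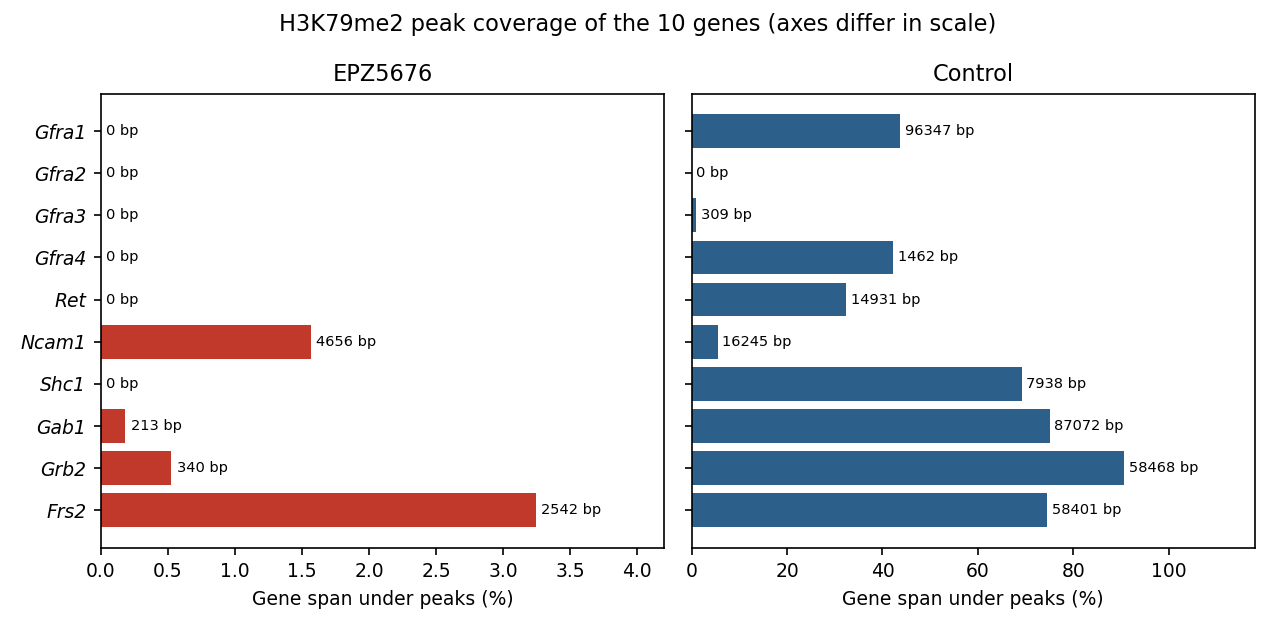
Percentage of each gene's span under H3K79me2 peaks in the EPZ5676 list (left) and in the control list (right), with the covered length in bp beside each bar; the horizontal axes differ in scale. No bar on the left passes 3.24% (Frs2), whereas Grb2 reaches 90.6% on the right.

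Gfra1, which encodes the co-receptor that binds GDNF, carried the longest control coverage of the 10 genes and no EPZ5676 peak. Its span is chromosome 19, 58235581 to 58455946 (mm10), 220366 bp on the minus strand. Peaks covered 0 bp in EPZ5676 cells against 96347 bp, in 37 peaks, in control cells, or 43.7% of the span. Of the protein-coding genes over 200 kb, 92.9% had a lower share covered in the control. With the control list held to as many peaks as the EPZ5676 list, Gfra1 had 49823 bp in control cells. The nearest EPZ5676 peak lay 13348 bp beyond the lower-coordinate end of the span, the end far from the start, and on the other side the nearest was 216945 bp away. Of genes with 50 to 100 kb of control coverage, 62.1% had an EPZ5676 peak, so the smaller part of them had none in that list.

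The Gfra1 mark was denser between the start and the midpoint of the span than beyond the midpoint. It did not fall steadily from the start: control peaks covered 100% between 1 and 5 kb, 72.0% between 5 and 10 kb and 93.3% between 20 and 40 kb. Between the start and the midpoint of the span lay 21 peaks over 83332 bp, with a median width of 1440 bp and a widest peak of 24365 bp. Beyond the midpoint lay 16 peaks over 13015 bp, with a median width of 740 bp and none over 1957 bp. Fold enrichment, here and elsewhere the authors' value of signal over background for a peak, ran between 2.14 and 4.12 before the midpoint and between 2.01 and 2.64 beyond it. The peak of highest fold, 3900 bp wide at 4.12-fold, lay between 167 and 171 kb from the lower-coordinate end of the span. The start is near the other end, so this peak was well inside the gene. Gaps between neighbouring peaks had a median of 1140 bp, and joining peaks no more than 1000 bp apart turned 37 peaks into 21. The span of Gfra1 also contains Gm46650, a predicted protein-coding gene, over which 226 bp of this coverage lay.

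The other 3 co-receptor genes had few bases under control peaks or none. Gfra2, the receptor gene for neurturin (chromosome 14, 70890107 to 70979840), had 0 bp in the EPZ5676 list and 0 bp in the control list, while 70.9% of protein-coding genes of 50 to 200 kb had a control peak. Gfra3, the receptor gene for artemin (chromosome 18, 34689898 to 34720387), had 0 bp in EPZ5676 cells against 309 bp in control cells, in 1 peak of 2.03-fold. That peak had a −log10 q of 1.15, near the lowest of the control list (1.05), and was absent when peaks needed a −log10 q of at least 2. Gfra4, the receptor gene for persephin (chromosome 2, 131039632 to 131043088), had 0 bp in EPZ5676 cells against 1462 bp in control cells. Its span is only 3457 bp, so this was 42.3% of it, and 80.5% of protein-coding genes under 10 kb had a lower share covered. Its 1 control peak, 1873 bp wide at 2.27-fold, lay over the end of this minus-strand gene and ran 411 bp beyond it, and its listed starts were 1589 and 1995 bp away. When control peaks had to reach the lowest −log10 p of the EPZ5676 list, 4.03, neither Gfra3 nor Gfra4 had a control peak, and Gfra1 alone of the 4 co-receptor genes remained marked.

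Ret encodes the tyrosine kinase that GDNF activates, and its control peaks were among the strongest of the 10 genes although they covered only one end of it. The span is chromosome 6, 118151748 to 118197744, 45997 bp. Peaks covered 0 bp in EPZ5676 cells against 14931 bp in control cells, or 32.5% of the span. The 2 control peaks, 7592 bp at 6.14-fold and 10532 bp at 6.80-fold, were separated by 609 bp and had −log10 q of 27.2 and 32.1. Of control-marked genes, 97.4% had a lower highest fold than Ret. All of the coverage lay above the midpoint of the span in coordinate, beginning 30.5 kb from the lower end, and the second peak continued 3193 bp past the upper end, where the next protein-coding gene, Bms1, starts 185636 bp away. The nearest EPZ5676 peak lay 15972 bp beyond the lower end of the span, 46429 bp from the first of these peaks. At a −log10 q of at least 2, at the lowest −log10 p of EPZ5676 peaks and with the control list held to as many peaks as the EPZ5676 list, Ret kept its 14931 bp.

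Gfra1 and Ret thus had the same state in both lists but unlike layouts, many modest peaks over a long stretch at Gfra1 and a pair of strong ones at Ret. The protein-coding genes most like each were sought among the 9299 others with a control peak and no EPZ5676 peak, by distance in log2 span length and log2 control-covered length. For Gfra1 these were Sh3pxd2a (distance 0.111, 94831 bp in 33 peaks), Fut8 (0.115, 96443 bp in 23 peaks) and Eif4g3 (0.122, 88829 bp in 31 peaks). For Ret they were Nupl1 (distance 0.0273, 14658 bp in 7 peaks), Rps6kb1 (0.0447, 14476 bp in 6 peaks) and Tbccd1 (0.0504, 14785 bp in 1 peak). The highest fold over these 6 genes was 5.96, at Rps6kb1, below the 6.80 of Ret.

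Ncam1, whose product can act as a GDNF receptor in place of RET and is otherwise a cell adhesion molecule, differed from the other receptor genes in having EPZ5676 peaks. The span is chromosome 9, 49502129 to 49799393, 297265 bp. After EPZ5676, 10 peaks covered 4656 bp (1.57% of the span), and in the control 21 peaks covered 16245 bp (5.46%), a control length 3.49 times as long. At least as much EPZ5676 coverage was found in 135 of 21887 genes (0.617%), and at least 10 EPZ5676 peaks in 92 (0.420%). Both shares are over genes of all lengths, and Ncam1 is long. An EPZ5676 peak was found in 46.7% of genes over 200 kb and in 1.22% of those under 10 kb. The shares among genes over 200 kb were not computed. Of the 2228 genes with both peaks, 10.1% had a ratio of EPZ5676 to control coverage at least as high as that of Ncam1.

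The Ncam1 peaks of both lists were short and gathered at the same side of the gene. Those of EPZ5676 were ordinary for their list, with medians of 438 bp and 2.77-fold against 402 bp and 2.75-fold over the whole list. Those of the control were below theirs, with medians of 466 bp and 2.19-fold against 1102 bp and 2.30-fold. EPZ5676 peaks were 167 to 913 bp wide with folds of 2.65 to 3.12, and control peaks were 191 to 2454 bp wide with folds of 2.02 to 2.81. Both sets lay above the midpoint of the span in coordinate, and the first base covered was 157497 bp from the lower end in the EPZ5676 list and 154743 bp in the control list. Of the 10 EPZ5676 peaks, 4 overlapped a control peak, over 1799 bp, and each of the 4 lay wholly inside it. The other 6 lay 226, 290, 609, 1044, 1489 and 16451 bp from the nearest control peak. In the whole EPZ5676 list, 55.8% of peaks overlapped a control peak. The comparison of lengths at Ncam1 turned round with the threshold: with control peaks held to a −log10 p of 4.03 it had 4656 bp in EPZ5676 cells against 2987 bp in control cells. At a −log10 q of at least 2 it had 292 bp and 4966 bp, and with peaks of at least 1000 bp it had 0 bp and 8811 bp.

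Marker genes of other cell types are set beside the Ncam1 peaks. Of 10 fibroblast marker genes, 4 had an EPZ5676 peak and 7 a control peak. Peaks covered 8872 bp in EPZ5676 cells against 49205 bp in control cells, a ratio of 5.55 between lists with different floors. The 4 were Prrx1 (3583 bp after EPZ5676, 11779 bp in the control), Twist2 (2907 and 12557 bp), Fbn1 (2141 and 10333 bp) and Sparc (241 and 5565 bp). Neither list had a peak at the collagen genes Col1a2 and Col3a1 or at Vim, while Col1a1, Fn1 and Pdgfrb had control peaks only. Of the 10 fibroblast genes, 1 is under 10 kb, 6 are of 10 to 50 kb, 2 of 50 to 200 kb and 1 over 200 kb. In these classes 1.22%, 10.0%, 31.3% and 46.7% of all protein-coding genes had an EPZ5676 peak. A control peak was found in 32.7%, 61.8%, 70.9% and 56.8%. Whether the fibroblast counts depart from these shares was not tested. Of 10 germ cell marker genes, 0 had an EPZ5676 peak and 10 a control peak, over 0 bp in EPZ5676 cells against 258074 bp in control cells, with Nanos3, a germ cell RNA-binding protein gene, covered over 100% of its span. The germ cell genes are mostly shorter, with a median span of 15047.5 bp against 39055 bp for the fibroblast genes, although Zbtb16 spans 184429 bp. Of the 10, 3 are under 10 kb, 4 of 10 to 50 kb and 3 of 50 to 200 kb. In these classes 1.97%, 14.4% and 38.6% of control-marked genes had an EPZ5676 peak. The background is thus low in the shorter classes and higher in the longest. Whether a count of 0 departs from it was not tested. Of 10 genes of testis somatic cells, 1 had an EPZ5676 peak (Fshr, 179 bp). The 3 with a control peak were Wt1 (9155 bp, 19.4% of the span), Inha (795 bp, 24.2%) and Amh (325 bp, 13.3%). Sox9, Gata4, Star, Cyp17a1, Acta2 and Myh11 had 0 bp in both lists. Of these 10 genes, 5 are under 10 kb, 2 of 10 to 50 kb, 2 of 50 to 200 kb and 1 over 200 kb, classes whose shares are given above. The part of feeder cells in the Ncam1 peaks was not tested.

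**Figure D2:**
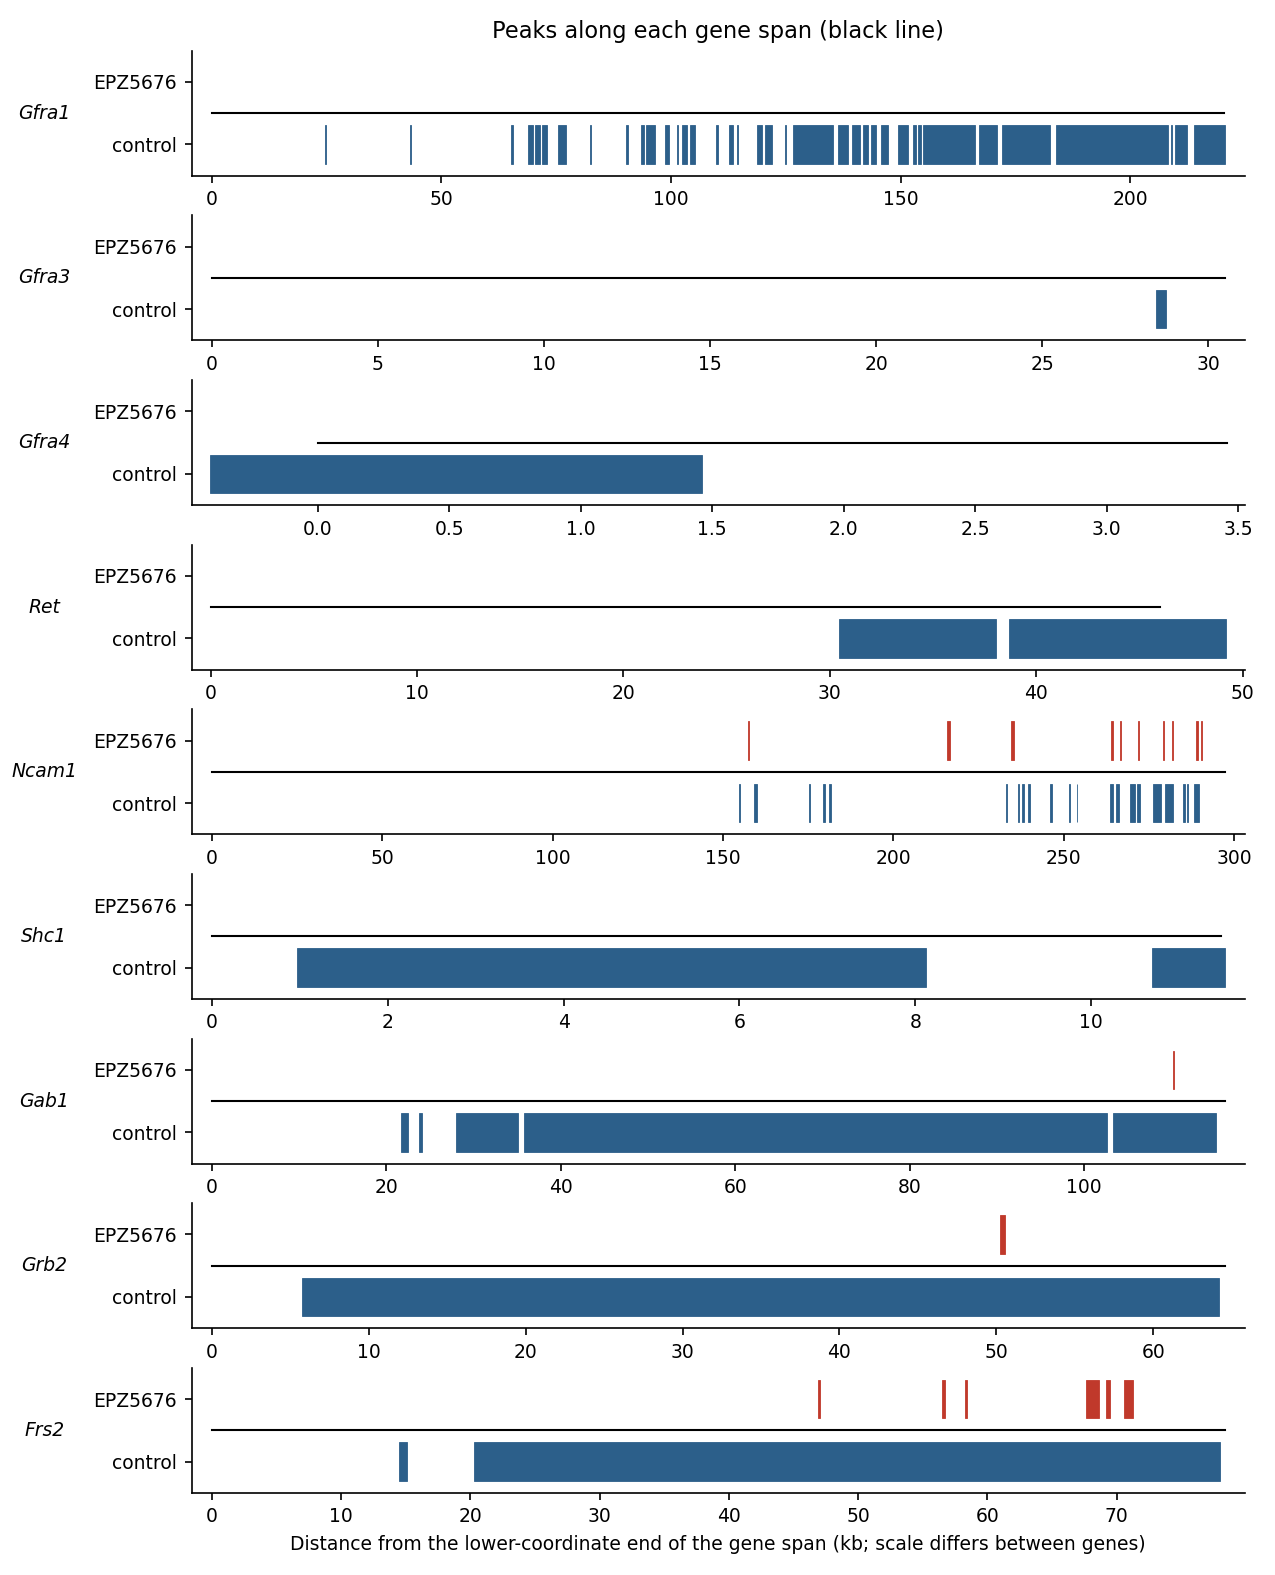
Peaks along the spans of 9 genes, with EPZ5676 peaks (red) above the line of the span and control peaks (blue) below it; Gfra2 has no peak and is left out. The horizontal axis is the distance in kb from the lower-coordinate end, on a scale of its own for each gene, and a reader sees scattered short peaks at Ncam1 in both lists against the near-continuous control domains of Gab1, Grb2 and Frs2 with 1, 1 and 6 short EPZ5676 peaks above them.

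The adaptor genes were the most completely covered members in the control and, except for Shc1, had short EPZ5676 peaks. Gab1, Grb2 and Frs2 had 58401 to 87072 bp of control coverage. Of all protein-coding genes with 50 to 100 kb of it, 62.1% had an EPZ5676 peak, so a peak at this coverage was common. All 4 had 69.2% to 90.6% of the span under control peaks, while 30.1% of all control-marked genes had at least 50% of it covered. Together they had 3095 bp in EPZ5676 cells against 211879 bp in control cells, a ratio of 68.5.

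Grb2, the adaptor that couples receptors to the Ras exchange factor SOS, had 340 bp in EPZ5676 cells against 58468 bp in control cells. The span is chromosome 11, 115644045 to 115708597, 64553 bp on the minus strand. A single control peak covered 90.6% of it at 6.74-fold, a share that 99.4% of protein-coding genes of 50 to 200 kb did not reach. The 1 EPZ5676 peak, at 2.65-fold with a −log10 q of 1.21, lay inside that domain, its near edge 14001 bp from the upper-coordinate end of the span, where this gene begins.

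Frs2, a membrane-anchored docking protein gene best known for linking FGF receptors to GRB2, had 2542 bp in EPZ5676 cells against 58401 bp in control cells. The span is chromosome 10, 117070127 to 117148474, 78348 bp on the minus strand. A peak of 57781 bp at 4.57-fold made up 98.9% of the control coverage, and the rest was a peak of 620 bp. All 6 EPZ5676 peaks, 151 to 1010 bp wide, lay inside the long domain, between 7.07 and 31.5 kb downstream of the listed start. At least 6 EPZ5676 peaks were found in 1.12% of protein-coding genes of all lengths. Of those of 50 to 200 kb, 31.3% had any EPZ5676 peak, and the share with at least 6 was not computed for them. The peak of 1010 bp was the only EPZ5676 peak in the 10 genes that reached 1000 bp.

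Gab1, a docking protein gene that links receptors to PI3 kinase and the phosphatase SHP2, had 213 bp in EPZ5676 cells against 87072 bp in control cells. The span is chromosome 8, 80764431 to 80880519, 116089 bp on the minus strand. Its 5 control peaks, the widest 66879 bp at 3.30-fold and the strongest 11795 bp at 3.78-fold, covered 75.0% of the span, and joining gaps of up to 1000 bp left 3, the widest 87080 bp. The EPZ5676 peak, 213 bp at 2.80-fold, lay inside the strongest control peak, its near edge 5747 bp downstream of the start.

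Shc1, which encodes the adaptor that recruits GRB2 to phosphorylated receptors, had 0 bp in EPZ5676 cells against 7938 bp in control cells. The span is chromosome 3, 89418551 to 89430029, 11479 bp on the plus strand, much shorter than those of the other adaptors, and 14.4% of control-marked genes of its length class had an EPZ5676 peak. A control peak of 7148 bp at 4.09-fold began 973 bp into the gene, and another of 829 bp at 2.41-fold crossed its end by 39 bp. The neighbours are close, Cks1b at 259 bp and Pygo2 at 84 bp, and they had 2448 and 4182 bp under control peaks and 0 bp in the EPZ5676 list. With 5000 bp added on both sides, Shc1 had 0 bp in EPZ5676 cells against 15712 bp in control cells. Most of the added length, but not all, lay over those neighbours.

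**Figure D3:**
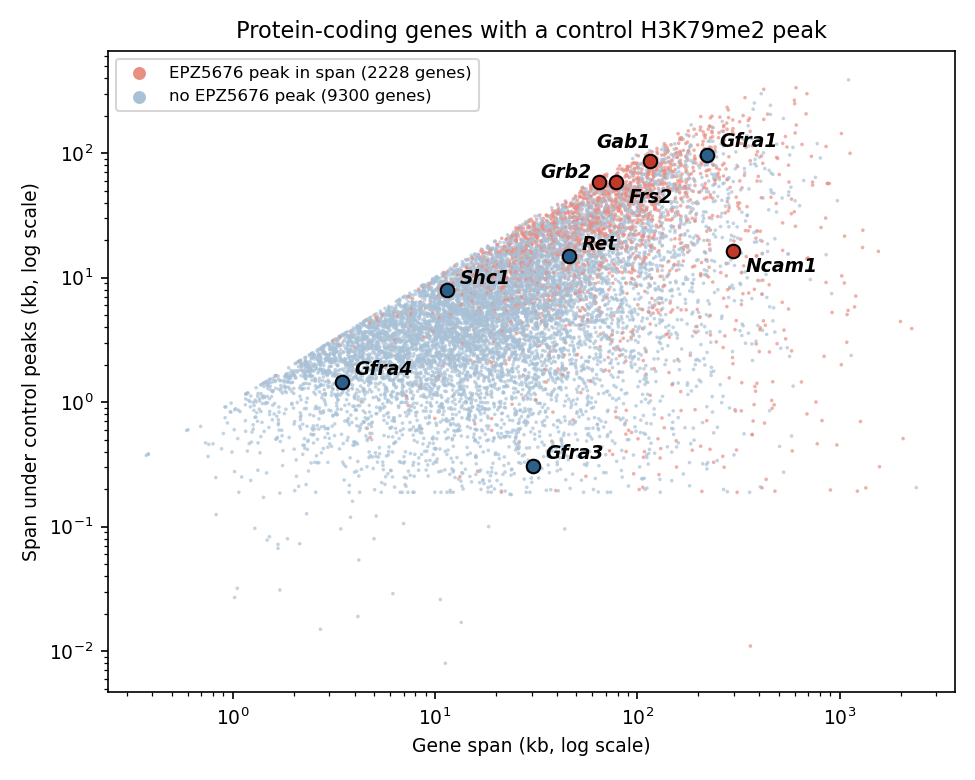
Length of the span under control peaks against span length, both in kb on log axes, for the 11528 protein-coding genes with a control peak, coloured by whether an EPZ5676 peak lies in the span (red) or not (blue); large circles are the 9 marked members. Gab1, Grb2 and Frs2 lie close to the upper edge, where the span is nearly all covered, Gfra1 lies near them without an EPZ5676 peak, and Ncam1 lies far below the edge with one.

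**Figure D4:**
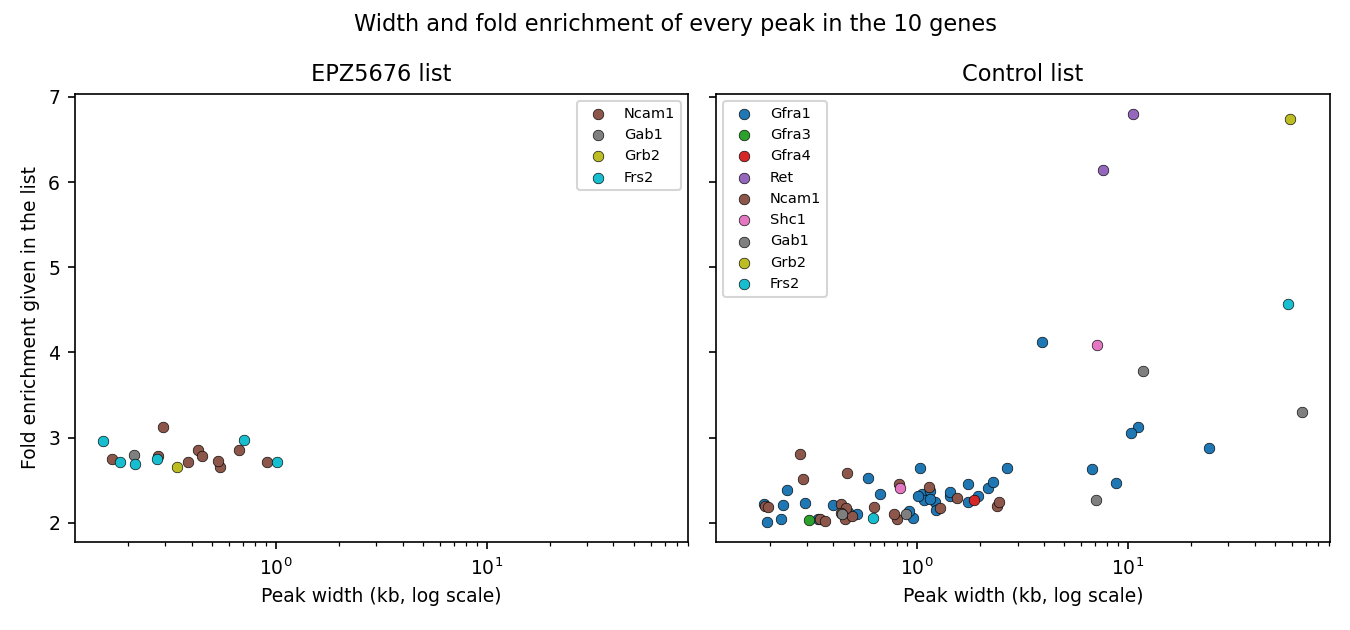
Width in kb (log axis) and deposited fold enrichment of each peak in the 10 genes, 18 in the EPZ5676 list (left) and 72 in the control list (right). EPZ5676 peaks stay between 2.65-fold and 3.12-fold and reach 1010 bp in width at most, while control peaks reach 66879 bp (Gab1) and 6.80-fold (Ret); folds of different lists have different backgrounds and are not compared.

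Counted by peak, the 10 genes held 18 EPZ5676 peaks and 72 control peaks. Of the 18, 12 overlapped a control peak (66.7%), against 55.8% in the whole EPZ5676 list. Among them were all 8 in the adaptor genes, where control peaks covered 78.3% of the summed spans, so overlap was likely there. Of the 72 control peaks, 7 overlapped an EPZ5676 peak (9.72%), a share that was not computed over the whole control list. The plot of width against fold sets out every peak in the 10 genes.

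The starts of 6 of the 10 genes are given by the RefSeq promoter table (GRCm38.p6), which lists 10 start sites for Gfra1, Gfra4, Shc1, Gab1, Grb2 and Frs2. Gfra2, Gfra3, Ret and Ncam1 are not in that table. No listed start lay under an EPZ5676 peak and 4 lay under a control peak, those of Gfra1 and Grb2 and the more downstream one of Shc1. Of all 11957 listed starts of control-marked genes, 0.0753% lay under an EPZ5676 peak and 15.5% under a control peak. The starts listed for Grb2 are internal: they lie 8669 and 9063 bp inside the span, within its control domain, whereas that domain ends 343 bp short of the upper end of the span. The Gfra1 start lies 548 bp inside its span, and its control peak covers that end of the span too. The most upstream starts of Gab1, Frs2 and Shc1 are the ends of their spans. Frs2 and Gab1 begin just upstream of their control domains, whose nearest edges were 323 and 1036 bp downstream, and the nearest control peak on the upstream side was 69761 bp (Frs2) and 23582 bp (Gab1) away. Shc1 begins between peaks, 972 bp before its own and 632 bp from the one over Cks1b. The 250 bases upstream of 4 starts are shown because they lie just before the control domain or, in Gfra1, under it: Gfra1 at chr19:58455399-58455648, minus strand, Frs2 at chr10:117148475-117148724, minus strand, Gab1 at chr8:80880520-80880769, minus strand, and Shc1 at chr3:89418301-89418550, plus strand. The Grb2 window, inside the gene, is left out. Each is written 5′ to 3′ on the strand of its gene, and capitals mark, on either strand, the CCAAT box, the core GGGCGG of the GC box, and the ETS-type motif CCGGAAG.

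Gfra1: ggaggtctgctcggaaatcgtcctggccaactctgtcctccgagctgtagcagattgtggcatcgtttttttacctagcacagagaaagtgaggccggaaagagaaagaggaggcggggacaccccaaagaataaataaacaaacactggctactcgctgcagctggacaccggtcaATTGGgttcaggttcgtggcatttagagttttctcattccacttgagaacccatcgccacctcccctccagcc

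Frs2: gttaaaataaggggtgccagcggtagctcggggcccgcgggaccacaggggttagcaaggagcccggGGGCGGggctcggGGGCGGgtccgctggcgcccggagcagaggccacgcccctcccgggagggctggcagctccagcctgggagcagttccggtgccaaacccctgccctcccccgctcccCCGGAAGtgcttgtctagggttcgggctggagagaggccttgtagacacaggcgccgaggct

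Gab1: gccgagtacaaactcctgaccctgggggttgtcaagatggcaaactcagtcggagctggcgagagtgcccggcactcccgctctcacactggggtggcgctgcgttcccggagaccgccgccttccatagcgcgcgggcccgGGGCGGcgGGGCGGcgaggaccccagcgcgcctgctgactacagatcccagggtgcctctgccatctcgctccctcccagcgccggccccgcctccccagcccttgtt

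Shc1: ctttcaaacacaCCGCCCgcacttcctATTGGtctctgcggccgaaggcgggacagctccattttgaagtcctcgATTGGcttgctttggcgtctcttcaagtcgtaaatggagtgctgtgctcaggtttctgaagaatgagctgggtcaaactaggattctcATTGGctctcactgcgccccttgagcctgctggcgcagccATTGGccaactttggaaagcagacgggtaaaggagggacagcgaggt

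The count of CpG dinucleotides in the window was 10 for Gfra1, 19 for Frs2, 24 for Gab1 and 12 for Shc1, where the median of 32851 promoters was 6. GC content was 52.4% for Gfra1, 71.6% for Frs2, 70.8% for Gab1 and 54.4% for Shc1, with a median of 52.4% over all promoters. GGGCGG occurred 2 times in Frs2, 2 times in Gab1 and 1 time in Shc1 and is held by 32.7% of all promoters. CCAAT occurred 4 times in Shc1 and 1 time in Gfra1 (33.8% of all promoters), and CCGGAAG 1 time in Frs2 (6.91%). The TATA box hexamer TATAAA, also searched on both strands and held by 12.4% of all promoters, is not in these 4 windows. With 4 windows these are descriptions only.

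Downstream of the start, the 3 long genes whose listed start is at or near the end of the span stayed covered farther than marked genes did on average. Between 20 and 40 kb from the start, control peaks covered 100% of the bases in Gab1 and Frs2 and 93.3% in Gfra1, against a mean of 33.8% over the 3178 control-marked genes that reach that far. Grb2, measured from the upper end of its span, also had 100% covered between 20 and 40 kb. Between 80 and 120 kb, Gfra1 still had 45.8% covered, against a mean of 17.2% over 909 genes. The mean is taken from listed starts, which lay more than 1000 bp inside the span in 11.0% of the 9335 control-marked genes with one. EPZ5676 coverage was 0% in the first 5 kb of Gfra1, Shc1, Gab1 and Frs2 from the listed start, and of Grb2 from the end of its span, while Gfra4 is shorter than that and had no EPZ5676 peak. Between 5 and 10 kb it was 25.6% in Frs2, 4.26% in Gab1 and 0% in Gfra1, Shc1 and Grb2, and the Grb2 peak fell between 10 and 20 kb (3.40%). Over marked genes in general the EPZ5676 mean was highest between 1 and 5 kb, at 2.38%, and was 1.47% between 5 and 10 kb.

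**Figure D5:**
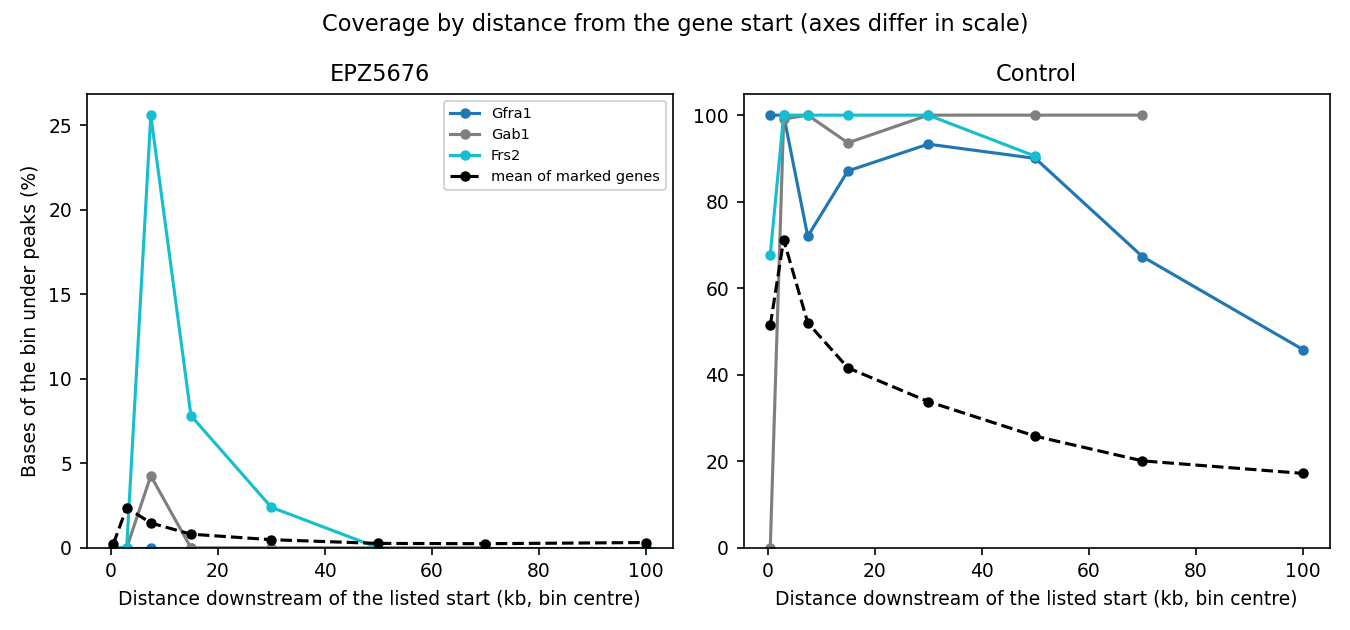
Percentage of bases under EPZ5676 peaks (left) and control peaks (right) in bins of distance downstream of the most upstream listed start, in kb, for Gfra1, Gab1 and Frs2 and as the mean over control-marked genes with a listed start (dashed). The panels differ in scale; Frs2 reaches 25.6% on the left between 5 and 10 kb, and Gfra1 declines on the right to 45.8% between 80 and 120 kb.

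The other genes of GDNF-family signalling, a list of 54, were mostly marked in the control, and many had an EPZ5676 peak. An EPZ5676 peak lay in 26 of 54 and a control peak in 46, and all 26 had both. These genes are long, with a median span of 54950 bp against 17169 bp over all protein-coding genes, which bears on the background shares of 12.3% and 52.7%. Their median control coverage was 14439.5 bp, against 602 bp over all protein-coding genes, and the 10 receptor and adaptor genes had a median of 15588 bp.

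The 4 ligand genes had no EPZ5676 peak, and the 2 with control peaks had few bases under them. Their median span is short, 5557 bp. Of protein-coding genes under 10 kb and of 10 to 50 kb, 1.22% and 10.0% had an EPZ5676 peak, and 32.7% and 61.8% a control peak. Gdnf itself had 0 bp in EPZ5676 cells against 547 bp in control cells, the shortest coverage among the marked genes of the list. Nrtn, the neurturin gene, had 0 and 1487 bp. The latter was 23.9% of its span, and 73.5% of protein-coding genes under 10 kb had a lower share covered. Artn and Pspn, for artemin and persephin, had no peak in either list. Among further receptor genes, Itgb1, the β1 integrin gene, had 1129 bp in EPZ5676 cells against 22722 bp in control cells, and Gfral and Ncam2 had no peak in either list.

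Adaptor genes outside the 10 ranged widely, with 8 of 18 marked in the EPZ5676 list and 15 in the control. Irs1, an insulin receptor substrate gene, had the longest EPZ5676 coverage of the list, 4963 bp in 9 peaks in EPZ5676 cells against 19045 bp in control cells. Its relative Irs2 had 2134 and 21384 bp. The SH2 and SH3 domain adaptor genes had wide control domains and short EPZ5676 peaks, namely Nck1 (3595 bp after EPZ5676, 47514 bp in the control), Crkl (1067 and 31873 bp), Nck2 (467 and 102912 bp) and Crk (265 and 22253 bp). Grb10 had 954 bp in EPZ5676 cells against 2158 bp in control cells, and Gab2, a relative of Gab1, had 311 and 18494 bp. The docking protein genes Dok1 (1351 bp) and Dok4 (1176 bp) had control peaks only, and Shc3, Gab3 and Dok6 had no peak in either list.

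Genes of the kinase cascades below the adaptors were all marked in the control. Median spans were 60865 bp (Ras and MAP kinase) and 69048 bp (PI3 kinase and AKT), and 70.9% of protein-coding genes of 50 to 200 kb had a control peak. Their median control coverage was 23825 and 35788 bp, and 49.6% of genes with 20 to 50 kb of it had an EPZ5676 peak. Of 13 Ras and MAP kinase genes, 6 had an EPZ5676 peak, among them the Ras exchange factor genes Sos1 (2348 bp after EPZ5676, 25118 bp in the control) and Sos2 (2254 and 23825 bp), Ptpn11, for the phosphatase SHP2 (644 and 27312 bp), and Braf (459 and 36287 bp). Of 7 PI3 kinase and AKT genes, 6 had one, all short. The catalytic subunit genes Pik3ca and Pik3cb had 963 and 425 bp after EPZ5676, against 36237 and 35788 bp in the control. Pik3r1, a regulatory subunit gene, had 493 bp in EPZ5676 cells against 47777 bp in control cells. The kinase genes Akt1 and Akt2 had 287 and 666 bp after EPZ5676, against 12232 and 24552 bp in the control.

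Lyn, a Src-family kinase gene, had nearly equal coverage in both lists, with 4410 bp in 8 peaks after EPZ5676 and 5277 bp in 9 peaks in the control. Its relatives Src (299 bp after EPZ5676, 30558 bp in the control) and Fyn (147 and 141675 bp) had far longer control coverage, as did Plcg1, a phospholipase C gene (1091 and 16647 bp). The control length was 1.20 times the EPZ5676 length at Lyn, 2.26 times at Grb10 and 3.84 times at Irs1, the 3 lowest ratios among the 26 genes with both peaks, against 3.49 times at Ncam1. These are ratios of deposited lengths from lists with different floors. Coverage at a common floor was not computed for Lyn, Grb10 and Irs1, and no control peak at Lyn passed 2.41-fold. Cbl, a ubiquitin ligase gene that ends receptor signalling, had 2296 bp in EPZ5676 cells against 56074 bp in control cells, and Cblc had no peak in either list. The spans of Nck1, Sos1, Pik3ca, Plcg1, Dok4 and Pspn each share bases with another protein-coding gene, to which part of these values may belong.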

How the data were processed

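H3K79me2 chromatin immunoprecipitation was compared between EPZ5676-treated and control cultures through 2 deposited peak lists, each recorded under replicate 1 of its group. The submitters' processing notes name deepTools, Trimmomatic, bcl2fastq 2.20.0.422 and build mm10. The sources used here do not state the aligner, the peak caller, the use of the inputs or any pooling of replicates. Both lists have 9 columns in broad-peak layout. The score the authors deposited equals 10 times the −log10 q with decimals dropped, except in 4 control peaks. The deposited fold enrichment is a ratio to background, and the deposited −log10 p-value and q-value are the authors' own. The lists held 9182 peaks (EPZ5676) and 47774 peaks (control), covering 4.64 and 169 Mb, with lowest −log10 p of 4.03 and 2.36. Read depth is unknown, and 0 columns of per-sample values were unmapped.

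Coverage was computed with Python 3.11.15, pandas 2.3.3 and NumPy 2.4.6 from RefSeq spans of GRCm38.p6, the assembly that mm10 names, on chromosomes 1 to 19, X and Y, with an overlap of at least 1 bp. The coverage code was tested on simulated data. Members, lists and tests were chosen with earlier results of these data known. All 10 members are named. Of the pathway list, genes with an EPZ5676 peak, the 3 longest and 3 shortest control coverages and genes without any peak are named, except some that are not reported here, as are the 3 genes most like Gfra1 and Ret. The comparison of ratios at Lyn, Grb10 and Irs1 was chosen after values were seen. There were 7 planned and 3 added alternatives.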

Additional observations from a re-analysis of the deposited data

How the results depend on the processing

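The control side held under most settings: of the 10 genes, 6 to 9 had a control peak under every alternative, and their summed control coverage stayed within 1.5 times 341173 bp except in a window from 1000 bp before to 5000 bp after the listed start, which 6 genes have (inside the gene for Grb2) and which held 26595 bp. EPZ5676 counts depended on the setting. With −log10 q of at least 2, 1 gene (Ncam1) had an EPZ5676 peak and 1 had both, over 292 bp after EPZ5676. With peaks of at least 1000 bp, 1 gene (Frs2) had an EPZ5676 peak and 1 had both, over 1010 bp. With at least 500 bp covered, 2 genes (Ncam1 and Frs2) had EPZ5676 coverage and 2 had both. In the window at the start 0 had an EPZ5676 peak and 0 had both, over 0 bp. These settings keep fewer peaks or fewer bases by construction. Without Ncam1, EPZ5676 coverage was 3095 bp, an alternative added after seeing the data, as were joined peaks and a control list of 9182 peaks. That last setting left 6 genes with a control peak, and Ncam1, Gfra3 and Gfra4 had none. Of 188 values for single genes, 160 stayed within 1.5 times and 28 moved. Many of the 160 could not move. A gene at 0 bp stays there where a setting only removes peaks, and settings on the control list leave EPZ5676 values as they were. The tally is therefore no measure of robustness. No paired analysis was possible because there is 1 peak list per condition and no result comes from a test. For the same reason no replicate could be left out. A peak shorter or weaker than the authors' threshold is not in the lists, so absence of a peak is not absence of the mark.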
